A study of Homo sapiens with 3 samples.

Results

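Transcripts of 7 genes for dual-specificity phosphatases (DUSP1, DUSP2, DUSP4, DUSP5, DUSP6, DUSP10 and DUSP14) and of the 3 pleckstrin homology-like domain genes PHLDA1, PHLDA2 and PHLDA3 were followed in THP-1 cells given phorbol myristate acetate (PMA). Members were all probe sets that the array platform's annotation assigns to exactly 1 of these 10 gene symbols. This gave 25 probe sets of the 54675 on the array, and 10 genes of the 19775 with a probe set of their own. The cell line THP-1 comes from a human monocytic leukemia and takes on an adherent, macrophage-like form when PMA switches on protein kinase C. RNA of 3 cultures was hybridised, 1 oligonucleotide array (1 colour, biotin label) for each. Undifferentiated cells received no PMA. The cells labelled PMA 3 days had 200 nM PMA for 24 h and then 3 days in PMA-free medium, and the cells labelled PMA 8 days were left in 200 nM PMA for 72 h, followed by 5 PMA-free days. Cells grew in 10% serum, and for the last 16 h before harvest the medium held 2% serum. Whether undifferentiated cells had this step too is not stated in the protocol. Length of exposure, time since exposure and time in culture differed together between the PMA cultures and cannot be told apart. Every value below is from 1 array, so no test between conditions was possible and no p-values are given.

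Dual-specificity phosphatases remove phosphate from both the threonine and the tyrosine that switch on a MAP kinase. Phorbol esters activate the MAP kinase ERK through protein kinase C, and ERK in turn induces several of these phosphatase genes, whose products shut the kinases off again in a negative feedback loop. PHLDA proteins are small proteins built around a pleckstrin homology-like fold that binds membrane lipids. PHLDA1 is a known transcriptional output of ERK, PHLDA2 is an imprinted gene that restrains placental growth, and PHLDA3 is a p53 target that holds back the kinase AKT.

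For 6 of the 10 genes upstream windows in RefSeq (build GRCh38.p14) were searched. These were 7 windows in all, because DUSP10 has a pair of start sites. No window was available for DUSP5, PHLDA2 and PHLDA3. DUSP4 was left out of the search by a filter on its chromosome, so its matches are not known here. The windows cover the 250 bases before the annotated start, written 5′ to 3′ on the strand of the gene. Those of the 3 genes with the largest increases, PHLDA1, DUSP1 and DUSP6, are shown with that of DUSP2, the member whose signal was below undifferentiated at both PMA times. They lie at chr12:76031777-76032026, minus strand (PHLDA1), chr5:172771196-172771445, minus strand (DUSP1), chr12:89352502-89352751, minus strand (DUSP6) and chr2:96145441-96145690, minus strand (DUSP2). Capitals mark matches to the core TGACG of the cAMP response element, the E-box CACGTG and, on the strand of the gene only, the TATA box TATAAA.
PHLDA1: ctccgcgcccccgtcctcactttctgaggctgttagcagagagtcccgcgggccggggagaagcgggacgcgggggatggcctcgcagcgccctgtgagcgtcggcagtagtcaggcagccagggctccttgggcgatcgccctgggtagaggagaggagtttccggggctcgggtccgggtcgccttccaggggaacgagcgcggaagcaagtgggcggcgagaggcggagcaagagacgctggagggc
DUSP1: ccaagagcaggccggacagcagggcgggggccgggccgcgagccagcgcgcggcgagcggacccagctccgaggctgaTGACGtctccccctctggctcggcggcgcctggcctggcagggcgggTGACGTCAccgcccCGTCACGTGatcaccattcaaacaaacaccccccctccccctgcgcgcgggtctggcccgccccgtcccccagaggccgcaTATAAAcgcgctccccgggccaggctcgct
DUSP6: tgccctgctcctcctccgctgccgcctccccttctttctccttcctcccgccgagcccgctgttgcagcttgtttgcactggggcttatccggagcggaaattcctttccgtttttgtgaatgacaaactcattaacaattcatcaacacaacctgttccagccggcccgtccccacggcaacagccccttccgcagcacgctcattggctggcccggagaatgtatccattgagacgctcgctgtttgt
DUSP2: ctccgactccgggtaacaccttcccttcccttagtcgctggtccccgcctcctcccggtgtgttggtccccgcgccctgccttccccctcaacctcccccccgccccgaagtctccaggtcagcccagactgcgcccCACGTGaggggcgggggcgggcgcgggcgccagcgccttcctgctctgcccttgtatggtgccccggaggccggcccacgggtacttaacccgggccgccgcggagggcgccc
The DUSP1 window held a full cAMP response element, TGACGTCA, at positions -125 to -118 from the start, which overlaps matches to the core. A match to the full element was found in 1.65% of the 35116 windows of the same length in the table, and a match to the core in 21.2%. The same window had an E-box at -108 to -103, which overlaps a core match by 2 bases, and a TATA box at -30 to -25. E-boxes were found in 6.34% and TATA boxes in 6.8% of all windows. The DUSP2 window held an E-box at -113 to -108. The PHLDA1 and DUSP6 windows held none of the capitalised motifs. The phorbol-responsive AP-1 site, TGANTCA on either strand, had 0 matches in the 7 windows searched, and was present in 6.57% of all windows. The ETS site CCGGAAG (8.52% of all windows), the CArG box (1.16%) and the NF-kB site (9.96%) likewise had 0 matches there. The GC box GGGCGG, found on either strand in 42.6% of all windows, had 1 match in the PHLDA1 window, 4 in that of DUSP1, 0 in that of DUSP6 and 3 in that of DUSP2. G and C made up 70.4% of the PHLDA1 window, 74.4% of DUSP1, 57.2% of DUSP6 and 74.0% of DUSP2. A match is a description of the letters in these windows.

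The values are MAS5 signals on a linear scale, and the arrays shared a trimmed mean of 1000.1 signal units. Signals under a floor of 149.8, the median of all probe sets, were raised to it, and a ratio that meets the floor is written as "at least". A gene is represented by its brightest probe set, and "higher" or "lower" means at least 2-fold between 2 arrays. The only error available is how far probe sets of 1 gene differ in their log2 ratio, which leaves out differences between cultures. Over 5180 genes this SD was 0.43 (PMA 3 days) and 0.444 (PMA 8 days) against undifferentiated cells, and 0.265 between the PMA arrays. The ratio of 3′ to 5′ actin signal, which grows as RNA degrades, was between 1.36 and 1.49 on the 3 arrays. Poly-A RNAs added as labelling controls were brighter on the PMA 3 days array, with median log2 ratios of 0.31 for PMA 3 days and 0.02 for PMA 8 days against undifferentiated, and -0.29 between PMA 8 days and PMA 3 days. Of 14 macrophage markers, 14 were higher at either PMA time, and their summed signal was 322350 at PMA 3 days and 281510 at PMA 8 days, against 27051 in undifferentiated cells. Of 11 measured progenitor and granule markers, 10 were lower at either PMA time, and the summed signal of the list was 2926 at PMA 3 days and 4202 at PMA 8 days, against 153770 in undifferentiated cells. Of 10 proliferation genes, 9 were lower at PMA 3 days and 1 at PMA 8 days, and 3 were higher at PMA 8 days than at PMA 3 days, with summed signals of 97722 in undifferentiated cells, 32013 at PMA 3 days and 63616 at PMA 8 days. Lists of other cell types had summed signals, in the order undifferentiated, PMA 3 days and PMA 8 days, of 1826, 2652 and 4803 (lymphoid), 1030, 4438 and 6610 (erythroid and megakaryocyte) and 22748, 23941 and 21526 (fibroblast, epithelial and endothelial). In the lymphoid list CD3D, CD3E, CD7 and MS4A1 were under the floor on all 3 arrays, but GNLY was at least 8.65-fold higher at PMA 3 days and 22.4-fold at PMA 8 days and gave 3359 of the PMA 8 days sum. In the erythroid and megakaryocyte list ALAS2 and KLF1 were under the floor on all 3, but PPBP was at least 21.7-fold higher at PMA 3 days and 37.1-fold at PMA 8 days and gave 5557 of the PMA 8 days sum. In the third list PDGFRB, EPCAM, CDH1, CDH5 and VWF were under the floor on all 3, and COL1A1 was 5.03-fold higher at PMA 3 days and 3.94-fold at PMA 8 days by its brightest probe set. The part of these shifts in the results below was not tested, and in a bulk culture a change in RNA per cell cannot be told apart from a change in the share of cells that hold it.

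In PMA 3 days cells 7 of the 10 genes were higher than in undifferentiated cells and 0 were lower. Of all 13306 genes compared, 10.4% were higher and 10.7% lower. The 7 were PHLDA1, DUSP1, DUSP6, DUSP14, DUSP5, DUSP4 and PHLDA2, and the same 7 were higher at PMA 8 days, where 9.83% of 13555 genes were higher and 8.49% lower. The median log2 ratio of the 10 genes was 1.31 at PMA 3 days and 1.98 at PMA 8 days, each over undifferentiated, beside -0.12 and -0.07 for all genes. DUSP10, DUSP2 and PHLDA3 stayed under 2-fold in both comparisons. At 1.5-fold, 8 of the 10 genes were above undifferentiated and 1 (DUSP2) below at PMA 3 days, beside 17.9% and 23.8% of all genes. At PMA 8 days 9 were above and 0 below at 1.5-fold, beside 17.6% and 20.1%. Of the 25 probe sets, 18 were above the floor on all 3 arrays and 1 was under it on all 3. Those past 2-fold higher numbered 15 of 23 measured at PMA 3 days and 15 of 24 at PMA 8 days, and 0 were lower. At each time 5 of the 15 belonged to PHLDA1 and 3 to DUSP6. Probe sets of 1 gene are not independent, so this count adds no genes to the 7. The share among all probe sets was not computed. Both comparisons use the same undifferentiated array, so the second does not count as a repeat of the first. Between the PMA cultures 0 of the 10 passed 2-fold, where 1.37% of 13051 genes were higher and 0.958% lower at PMA 8 days.

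**Figure D1:**
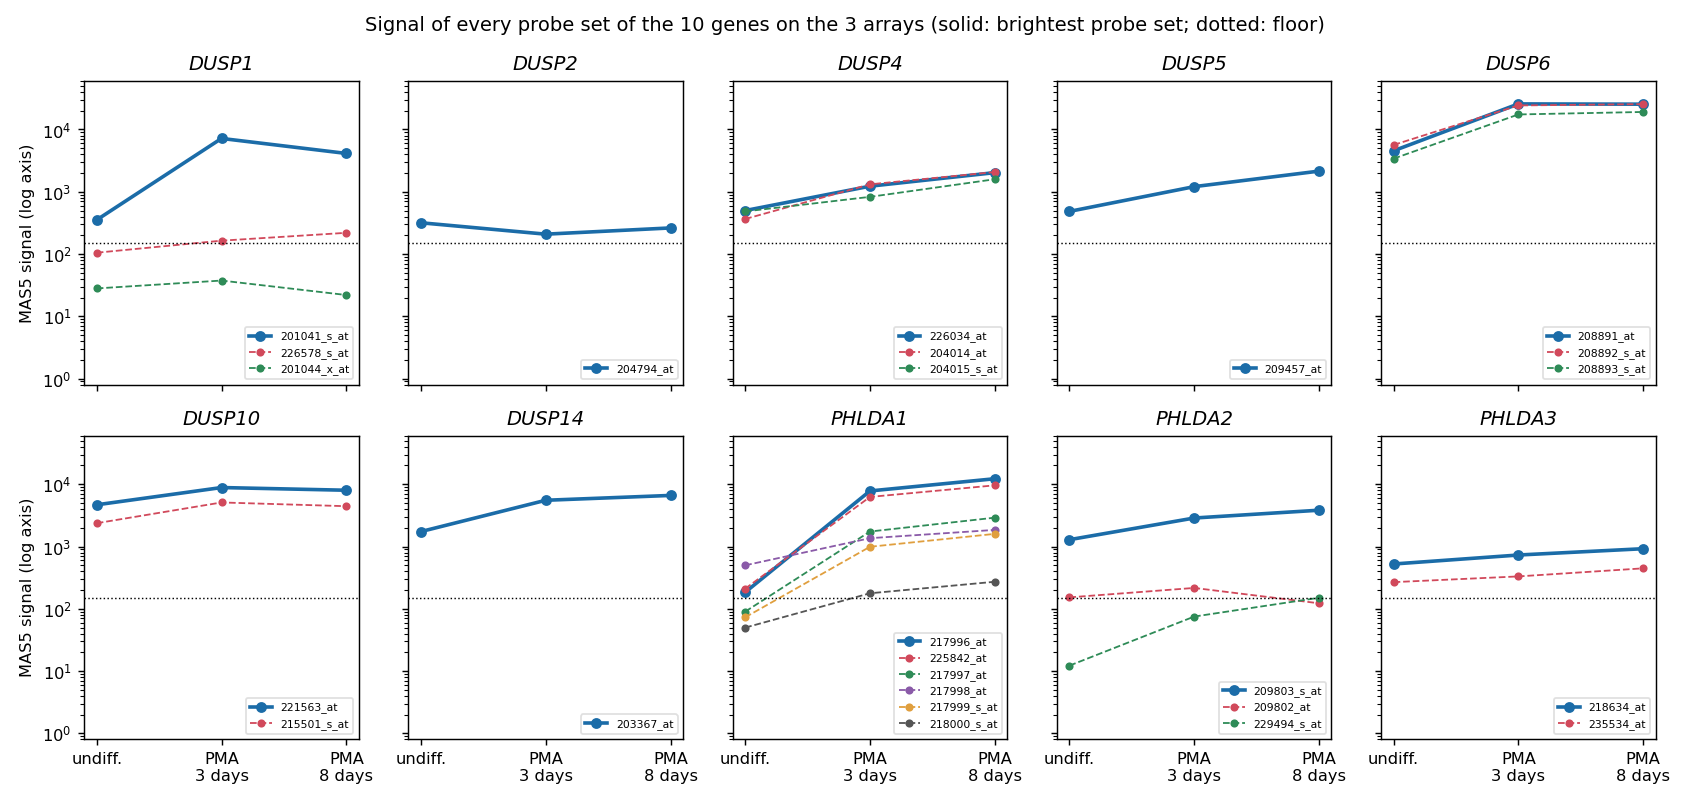
MAS5 signal (log axis) of each of the 25 probe sets on the 3 arrays, with 1 panel per gene, the brightest probe set as a solid line and the floor of 149.8 as a dotted line. The brightest probe sets of PHLDA1, DUSP1, DUSP6, DUSP14, DUSP5, DUSP4 and PHLDA2 lie higher on both PMA arrays than on the undifferentiated array by at least 2-fold, whereas that of DUSP2 lies highest on the undifferentiated array.

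The nuclear, inducible phosphatases DUSP1, DUSP2, DUSP4 and DUSP5 did not move as a block. DUSP1 acts on the stress kinases p38 and JNK as well as on ERK and limits cytokine production in macrophages. Its signal was 354 in undifferentiated cells, 7186 at PMA 3 days and 4128 at PMA 8 days. Both PMA arrays were high, and the PMA 3 days array was the higher of them. This is 20.3-fold over undifferentiated at PMA 3 days (log2 ratio 4.35) and 11.7-fold at PMA 8 days (3.55). DUSP1 stood at place 61 of 13306 genes, counted from the largest increase, at PMA 3 days, and at place 106 of 13555 at PMA 8 days. At PMA 8 days it was 1.74-fold lower than at PMA 3 days (log2 ratio -0.80), under the 2-fold line but 3.0 times the probe set SD.

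The DUSP1 values rest on 1 probe set, 201041_s_at. A second, 226578_s_at, was dim, at 105 signal units in undifferentiated cells, 164 at PMA 3 days and 219 at PMA 8 days. It was at least 1.10-fold above undifferentiated at PMA 3 days and at least 1.46-fold at PMA 8 days, and it was 1.34-fold above PMA 3 days at PMA 8 days, opposite in direction to 201041_s_at. The third, 201044_x_at, lay under the floor on all 3 arrays. Which of the probe sets reports the DUSP1 transcript was not tested.

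DUSP4, an inducible nuclear phosphatase of ERK and JNK, was measured by 3 probe sets, all above the floor on every array. The brightest, 226034_at, had a signal of 499 in undifferentiated cells, 1230 at PMA 3 days and 2029 at PMA 8 days. Each of the 3 probe sets was lowest in undifferentiated cells and highest at PMA 8 days. At PMA 3 days DUSP4 was 2.46-fold higher than in undifferentiated cells, with 1.71-fold and 3.60-fold by the other probe sets. At PMA 8 days it was 4.06-fold higher, with 3.29-fold and 5.68-fold by the others. Scaled to the poly-A controls, DUSP4 and PHLDA2 were short of 2-fold at PMA 3 days. With quantile normalization 204014_at became the brightest DUSP4 probe set, and the log2 ratio was 1.98 in place of 1.30 at PMA 3 days and 2.61 in place of 2.02 at PMA 8 days.

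DUSP5, a nuclear phosphatase with a preference for ERK, had a signal of 484 in undifferentiated cells, 1209 at PMA 3 days and 2147 at PMA 8 days on its only probe set. The signal was lowest without PMA and highest at PMA 8 days, as for DUSP4. It was 2.50-fold higher than in undifferentiated cells at PMA 3 days and 4.44-fold at PMA 8 days. PMA 8 days exceeded PMA 3 days by 1.78-fold for DUSP5 (log2 ratio 0.83) and by 1.65-fold for DUSP4 (0.72). With scaling to the poly-A controls these ratios passed 2-fold, at log2 1.12 for DUSP5 and 1.02 for DUSP4.

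DUSP2, a nuclear phosphatase best known from activated lymphocytes and myeloid cells, had a signal of 318 in undifferentiated cells, 209 at PMA 3 days and 263 at PMA 8 days. All 3 values were near the floor, and the undifferentiated array was the highest. The log2 ratio was -0.61 at PMA 3 days and -0.27 at PMA 8 days, each over undifferentiated, or 1.4 and 0.6 times the probe set SD. DUSP2 was the only member whose brightest probe set was below undifferentiated at either PMA time.

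DUSP6, the cytoplasmic phosphatase that is specific for ERK and is used as a readout of ERK activity, had a signal of 4551 in undifferentiated cells, 25748 at PMA 3 days and 25495 at PMA 8 days. Both PMA arrays were far above the undifferentiated array and close to each other. DUSP6 was 5.66-fold higher at PMA 3 days and 5.60-fold at PMA 8 days. Its 3 probe sets ranged from 4.30-fold to 5.66-fold at PMA 3 days and from 4.52-fold to 5.62-fold at PMA 8 days. Between the PMA arrays their log2 ratios lay between -0.01 and 0.13. This is within the probe set SD, but scaling to the poly-A controls gave a log2 ratio of 0.36 between the PMA arrays, beyond it. Under that scaling 208892_s_at became the brightest probe set, and the log2 ratio at PMA 3 days over undifferentiated was 1.79 in place of 2.50.

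DUSP10 acts on p38 and JNK rather than on ERK. Its brightest probe set read 4676 in undifferentiated cells, 8852 at PMA 3 days and 8011 at PMA 8 days. The PMA arrays were the higher ones, but by less than 2-fold, at 1.89-fold for PMA 3 days and 1.71-fold for PMA 8 days. A second probe set gave 2.15-fold and 1.87-fold in the same order, so that DUSP10 lay at the 2-fold line at PMA 3 days. It passed the line there when ratios were centred on the median of all genes.

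DUSP14, a small atypical member of the family that lacks the kinase-binding domain of the typical enzymes, is known in T cells as a brake on receptor signalling. Its only probe set read 1738 in undifferentiated cells, 5530 at PMA 3 days and 6613 at PMA 8 days. Both PMA arrays were high, and PMA 8 days exceeded PMA 3 days by 1.20-fold. DUSP14 was 3.18-fold higher than in undifferentiated cells at PMA 3 days and 3.81-fold at PMA 8 days.

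PHLDA1 had the largest increase of the 10 genes. Its brightest probe set, 217996_at, read 184 in undifferentiated cells, 7803 at PMA 3 days and 12256 at PMA 8 days. The undifferentiated value was just above the floor and both PMA values were far above it. PHLDA1 was 42.3-fold higher at PMA 3 days, place 21 of 13306 genes from the largest increase, and 66.5-fold higher at PMA 8 days, place 9 of 13555. With the floor at the 60th percentile of all values, 261, the undifferentiated signal met the floor, and the log2 ratio was at least 4.90 in place of 5.40 at PMA 3 days and at least 5.55 in place of 6.06 at PMA 8 days.

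The 6 probe sets of PHLDA1 all had their lowest signal in undifferentiated cells and their highest at PMA 8 days, but they differed widely in the size of the increase. The 3 that were above the floor on every array gave 42.3-fold, 29.7-fold (225842_at) and 2.73-fold (217998_at) at PMA 3 days, and 66.5-fold, 45.6-fold and 3.71-fold at PMA 8 days. 217998_at, with the smallest increase of these 3, read 499 in undifferentiated cells, 1361 at PMA 3 days and 1849 at PMA 8 days. The other 3 were under the floor in undifferentiated cells and gave at least 11.6-fold (217997_at), 6.61-fold (217999_s_at) and 1.19-fold (218000_s_at) at PMA 3 days. Between the PMA arrays all 6 gave similar ratios, with PMA 8 days 1.36-fold to 1.67-fold above PMA 3 days and an SD of 0.1 on the log2 scale. The direction of the PHLDA1 change was thus the same in every probe set, and its size was not.

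PHLDA2 was measured well by 1 of its 3 probe sets. 209803_s_at read 1288 in undifferentiated cells, 2869 at PMA 3 days and 3828 at PMA 8 days. It was lowest without PMA and was 2.23-fold higher at PMA 3 days and 2.97-fold at PMA 8 days. 209802_at lay near the floor, at 153 in undifferentiated cells, 216 at PMA 3 days and 123 at PMA 8 days, and 229494_s_at reached 150 at PMA 8 days only. By 209802_at PMA 8 days, under the floor, was at least 1.02-fold below undifferentiated, so the PHLDA2 call rests on 1 probe set. PHLDA2 lies in an imprinted cluster, and of the 7 measured genes in a list of that cluster 1 was higher and 1 lower at PMA 3 days. The cell cycle inhibitor CDKN1C was 5.21-fold higher at PMA 3 days and 2.52-fold at PMA 8 days by its brightest probe set. Its 4 probe sets ranged in log2 ratio from 0.92 to 2.38 at PMA 3 days and from -0.13 to 1.33 at PMA 8 days. The transcription factor ASCL2 was at least 3.01-fold lower at either PMA time, and the potassium channel KCNQ1 was 2.17-fold lower at PMA 8 days.

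PHLDA3 had a signal of 524 in undifferentiated cells, 731 at PMA 3 days and 922 at PMA 8 days, and its second probe set read 268, 331 and 447 in the same order. Both probe sets were lowest without PMA and highest at PMA 8 days. The ratios were 1.39-fold and 1.24-fold at PMA 3 days and 1.76-fold and 1.67-fold at PMA 8 days, under the 2-fold line. Of 17 measured p53 target genes in the list, which does not hold PHLDA3, 7 were higher and 2 lower at either PMA time, with median log2 ratios of 0.50 at PMA 3 days and 0.40 at PMA 8 days. The cell cycle inhibitor CDKN1A was 4.34-fold higher at PMA 3 days and 5.80-fold at PMA 8 days, and the cytokine GDF15 at least 8.11-fold and 5.65-fold. MDM2, the ligase that degrades p53, was 3.62-fold lower at PMA 3 days and 2.57-fold at PMA 8 days by its brightest probe set. Its 7 probe sets ranged in log2 ratio from -1.86 to -0.13 at PMA 3 days and from -1.66 to -0.13 at PMA 8 days. Of 21 genes of the PI3K and AKT pathway, 2 were higher and 2 lower at PMA 3 days, and 1 was higher and 1 lower at PMA 8 days. PIK3CD, a catalytic subunit of leukocyte PI3K, was 13-fold lower at PMA 3 days and 9.40-fold at PMA 8 days by its brightest probe set, and its other probe set gave log2 ratios of -0.35 and -0.82.

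**Figure D2:**
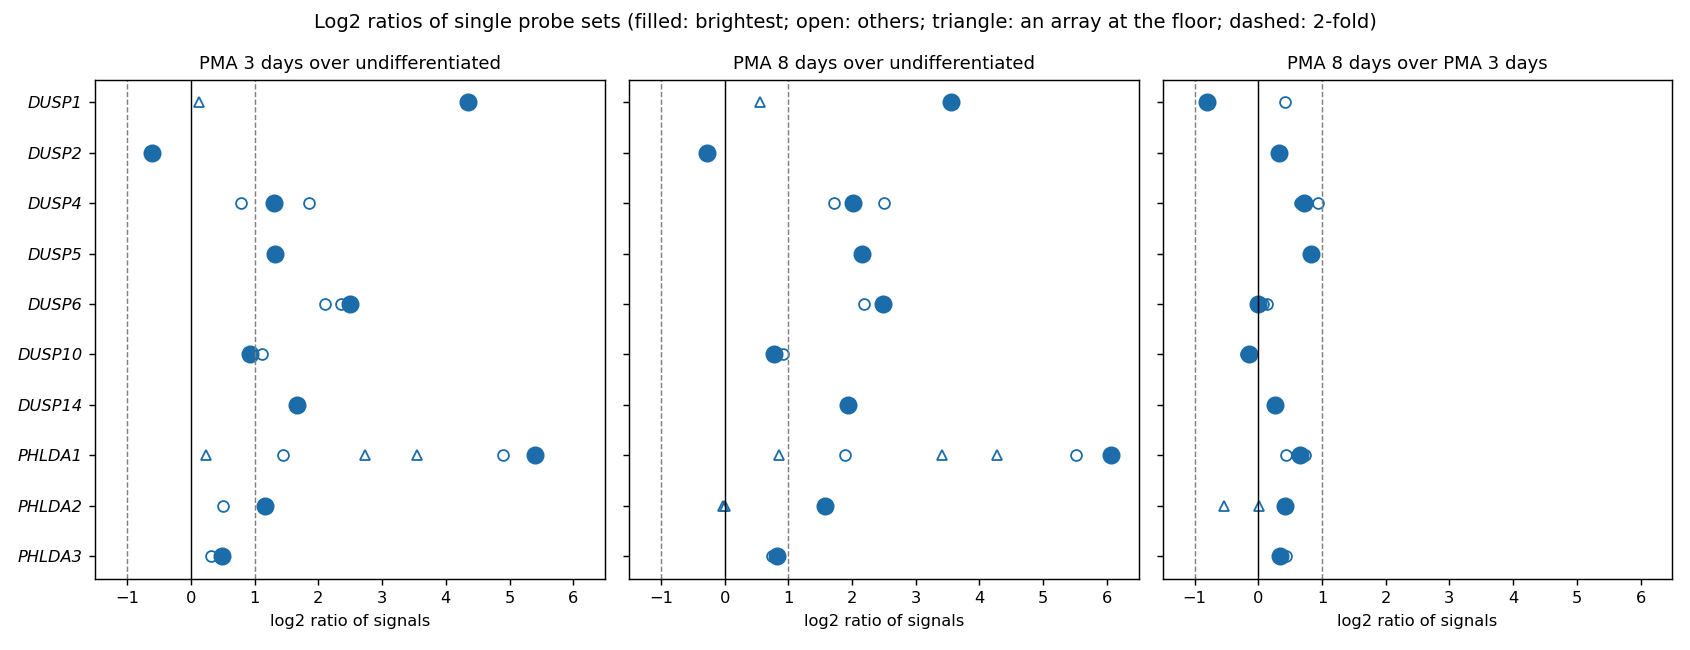
Log2 ratio of signals for each probe set in the 3 comparisons (horizontal axis), by gene, with the brightest probe set filled, the others open, and triangles where an array was at the floor. Dashed lines mark 2-fold. PHLDA1 probe sets spread from at least 0.24 to 5.40 at PMA 3 days over undifferentiated, DUSP6 probe sets lie between 2.11 and 2.50, and no probe set passes 2-fold between the PMA arrays.

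PMA 8 days was compared with PMA 3 days at a lower line too, because no member passed 2-fold there. At 1.5-fold, 3 of the 10 genes were above PMA 3 days at PMA 8 days (DUSP5, DUSP4 and PHLDA1) and 1 was below it (DUSP1), where 7.18% of all genes were above and 4.76% below. The median log2 ratio of the 10 was 0.34, beside 0.04 for all genes. DUSP5 stood at place 373 of 13051 genes and DUSP4 at place 580, while DUSP1 stood at place 12781. Scaling to the poly-A controls moved the median of all genes to 0.31, so that differences of this size depend on the scaling of the arrays. DUSP1 kept a negative ratio under that scaling, at -0.51.

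**Figure D3:**
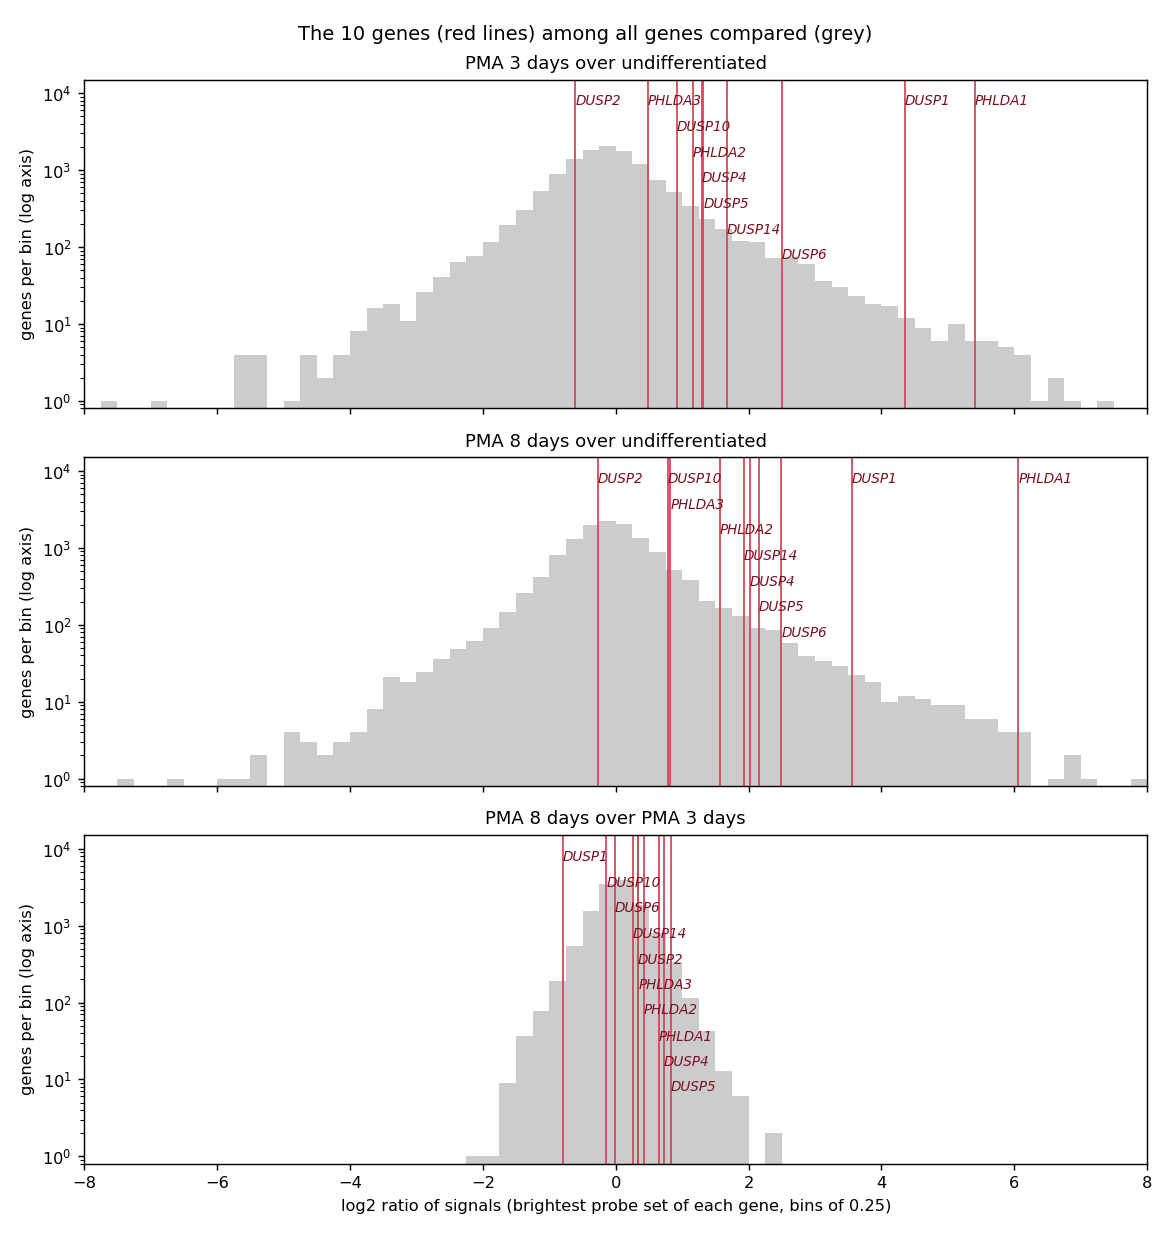
Number of genes (log axis) by log2 ratio of signals in each comparison, in bins of 0.25 (grey), with the brightest probe set of each of the 10 genes as a red line. PHLDA1 and DUSP1 stand in the upper tail of both comparisons with undifferentiated cells, at 5.40 and 4.35 for PMA 3 days, and DUSP1 stands on the lower side between the PMA arrays, at -0.80.

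Of the 4 other typical MAP kinase phosphatases measured at PMA 3 days, 1 was higher and 1 lower against undifferentiated, and 1 of 3 was higher and 1 lower between the PMA arrays. DUSP7 was 2.41-fold lower at PMA 3 days than in undifferentiated cells and 2.20-fold higher at PMA 8 days than at PMA 3 days. DUSP7 resembles DUSP6 in acting on ERK in the cytoplasm, and its signal was 4565 in undifferentiated cells, 1894 at PMA 3 days and 4166 at PMA 8 days. The low array was PMA 3 days, on which DUSP6 was high. DUSP16, a phosphatase of JNK, was at least 2.92-fold higher at PMA 3 days than in undifferentiated cells and 2.00-fold lower at PMA 8 days than at PMA 3 days. DUSP8 was near the floor on each array, at least 1.06-fold above undifferentiated at PMA 3 days and at least 1.25-fold at PMA 8 days. DUSP9 read 249 in undifferentiated cells and was under the floor on both PMA arrays. It was at least 1.66-fold lower at either PMA time, and this bound does not say whether it passed 2-fold. Of 10 measured atypical family members, 0 passed 2-fold in any of the 3 comparisons.

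Shares of the kinases upstream are set beside those of all genes, 10.4% higher and 10.7% lower at PMA 3 days and 9.83% and 8.49% at PMA 8 days. Of 15 measured MAP kinases and MAP kinase kinases, 0 were higher and 1 was lower at either PMA time. The gene was MAPK12, a p38 kinase, at 2.29-fold lower for PMA 3 days and 2.09-fold for PMA 8 days. Of 13 genes of the RAS and RAF cascade, 2 were higher at PMA 3 days and 3 at PMA 8 days, and 0 were lower. RRAS, a RAS-related GTPase, was 2.36-fold higher at PMA 3 days and 2.11-fold at PMA 8 days, and MRAS was 2.30-fold higher at PMA 8 days.

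Genes known as outputs or feedback inhibitors of ERK were higher in 4 of 13 measured cases at PMA 3 days and in 6 of 14 at PMA 8 days, with 1 lower at each time. Their median log2 ratio was 0.25 at PMA 3 days and 0.84 at PMA 8 days, each over undifferentiated. SPRY2, a Sprouty inhibitor of RAS signalling, had a signal of 2050 in undifferentiated cells, 6498 at PMA 3 days and 10516 at PMA 8 days. Like DUSP4 and DUSP5 it was highest at PMA 8 days, 5.13-fold above undifferentiated. SPRED1, a related inhibitor, was 5.95-fold higher at PMA 3 days and 6.28-fold at PMA 8 days by its brightest probe set. The log2 ratios of its probe sets went down to 1.06 at PMA 3 days and 0.36 at PMA 8 days. HBEGF, a ligand of the EGF receptor, was 4.52-fold higher at PMA 3 days and 6.04-fold at PMA 8 days. CCND1, which encodes cyclin D1, was 6.21-fold higher at PMA 8 days than in undifferentiated cells and 3.55-fold higher than at PMA 3 days. ETV1, an ETS transcription factor, was at least 5.28-fold lower at PMA 3 days and 2.09-fold at PMA 8 days by its brightest probe set, but its 5 probe sets ranged in log2 ratio from -1.06 to 0.70 at PMA 8 days. Immediate early genes, most of them for transcription factors but not BTG1, were higher in 6 of 20 cases at PMA 3 days. At PMA 8 days 5 of 21 were higher, and 0 were lower at either time. Their median log2 ratio was 0.54 at PMA 3 days and 0.24 at PMA 8 days, and those under 2-fold lay on both sides of undifferentiated. Between the PMA arrays 0 of 21 were counted past 2-fold. FOSL1, which is in this list and in that of ERK outputs, was under the floor except at PMA 8 days, where it read 299. The floor makes its ratios at PMA 8 days lower bounds. They fell just short of the 2-fold line and were not counted, so FOSL1 may have passed it. By brightest probe sets, MAFF was 7.25-fold higher at PMA 3 days and 7.93-fold at PMA 8 days, and ATF3 4.70-fold and 5.31-fold. Their other probe sets gave log2 ratios of 1.14 (MAFF) and -0.15 (ATF3) at PMA 3 days. NR4A2, an orphan nuclear receptor, was 5.13-fold higher at PMA 3 days and 2.61-fold at PMA 8 days, and BTG1 3.46-fold and 3.07-fold. For NR4A2 and BTG1 the PMA 3 days array was the higher one, as for DUSP1, and for MAFF and ATF3 the PMA 8 days array.

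**Figure D4:**
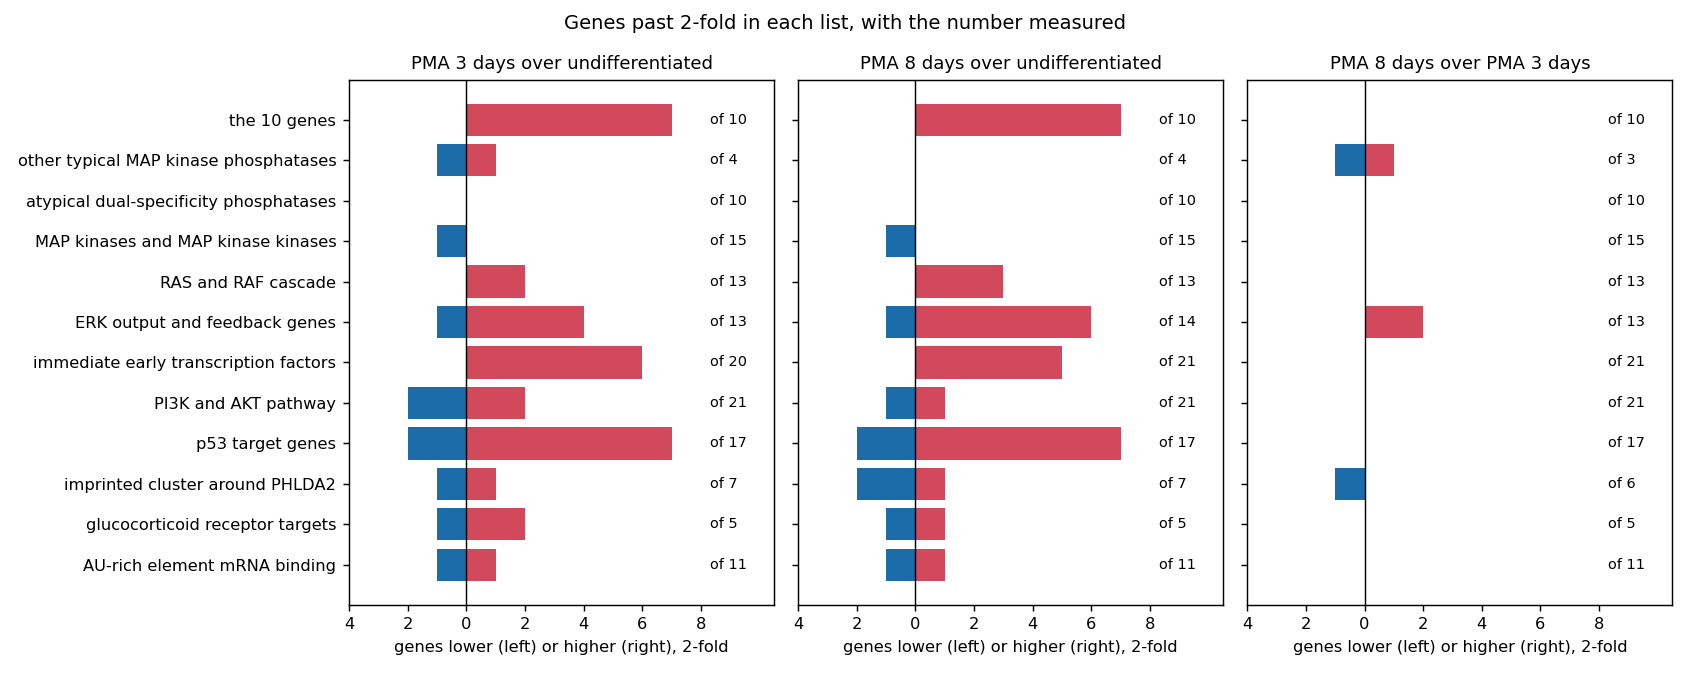
Number of genes higher (bars to the right) or lower (bars to the left) at 2-fold in each comparison, for the 10 genes and for 11 lists of related genes, with the number measured at the right. The 10 genes have 7 higher and 0 lower in both comparisons with undifferentiated cells, and the list of ERK outputs has 4 and then 6 higher.

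The genes with the most similar course were found by the distance between pairs of log2 ratios (PMA 3 days over undifferentiated, PMA 8 days over PMA 3 days), among 9471 other genes that were above the floor on all 3 arrays and whose probe sets moved the same way at PMA 3 days. With 3 arrays such a distance is a description of these values. DUSP4 and DUSP5 were among the 3 nearest genes of each other, at a distance of 0.107 log2 units, and CPE, which encodes a carboxypeptidase, was the nearest of both, at 0.068 from DUSP4 and 0.055 from DUSP5. TIMP1, an inhibitor of matrix metalloproteinases, was 0.078 from DUSP5, and TSPAN6 was 0.144 from DUSP4. Nearest to DUSP1 were the transporter gene ABCG2 (0.063), SELENOP (0.194) and SYTL3 (0.223). DUSP6 lay nearest to ARHGAP18 (0.031), the amino acid transporter gene SLC7A8 (0.043) and BCL6 (0.086), a transcriptional repressor. PHLDA1 had no near neighbour among the genes compared: its closest genes, MTSS1, MMP9 and A2M, were at 0.514, 0.549 and 0.586. Genes with increases of this size are few, with 6 at log2 ratios from 5.25 to 5.5 at PMA 3 days, PHLDA1 among them. Genes under the floor in undifferentiated cells were left out of the search, so these distances need not be a trait of PHLDA1. PHLDA2 was nearest to the cystine transporter gene SLC7A11 (0.056), PLA2G15 (0.060) and RHOC (0.079). DUSP14 was nearest to RHBDD2 (0.015), LOC100507403 (0.040) and the adhesion receptor gene ICAM1 (0.043). The nearest genes of DUSP2, DUSP10 and PHLDA3 lay within 0.029, where many genes with small ratios crowd together. For DUSP2 they were PPP1R37, ATIC and ZNF593, for DUSP10 LAP3, TBC1D9 and DNAI4, and for PHLDA3 CDIN1, SLC39A2 and AP1S1.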

How the data were processed

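Each array had 200 ng of RNA, per the labels' protocols. Per the submitters' processing notes, the deposited intensity values are MAS5 signals. The version, the scaling target and detection calls are not given in the sources used here. Equal means after 2% was left out at either end are read from the values.

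Of 54675 probe sets, 62 controls were set aside. The platform table gave 41091 probe sets 1 gene, 1801 several and 11721 none, and no probe set of several genes held a member. Entrez IDs matched RefSeq for 41037 probe sets and changed 0 symbols. Log2 ratios, floor, brightest probe set and 2-fold line are as defined above. With 1 array per condition the number of arrays limits the precision. The members and gene lists were chosen with earlier results of these data known. Named genes are the members, up to 4 genes past 2-fold per list and comparison, the genes of lists with under 10 measured, and the 3 nearest courses per member. Alternatives for floor, probe set, scaling, filter and fold were run. Steps were tested on simulated data. Python 3.11.15, numpy 2.4.6, pandas 2.3.3 and matplotlib 3.10.9 were used.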

Additional observations from a re-analysis of the deposited data

How the results depend on the processing

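Alternatives covered the floor, the probe set, the scaling, the filter and the fold. Of 261 member log2 ratios under them, 228 moved by less than 1 probe set SD, 32 by more, and 1 changed sign from past 2-fold. Part of the 228 could not have moved further. Without the filter the member ratios stay identical, and centring shifts every ratio by the small median of all genes. The median over probe sets cannot move DUSP2, DUSP5 and DUSP14, which have 1 probe set each. The 228 are thus no measure of how robust the ratios are. The sign was opposite in 7 of the 261. For a gene past 2-fold this was PHLDA2 at PMA 8 days over undifferentiated, at -0.03 or lower by its second brightest probe set, where PMA 8 days met the floor. The other 6 were between the PMA arrays: by second brightest probe sets DUSP1 (0.42 in place of -0.80), PHLDA2 (-0.53 or lower in place of 0.42) and DUSP6 (0.07 in place of -0.01), by the median over probe sets DUSP6 (0.07), and under poly-A control scaling DUSP6 (0.36) and DUSP10 (0.15 in place of -0.14). Over undifferentiated, 7 members were higher at both times. By second brightest probe sets, which only 7 members have, 4 were higher at PMA 3 days and 3 at PMA 8 days. Among all genes with such a probe set these were 631 of 6502 and 599 of 6593. Under poly-A control scaling 5 of the 10 members were higher at PMA 3 days, beside 987 of 13294 genes. At 3-fold, 4 were higher at PMA 3 days and 6 at PMA 8 days, beside 740 of 13306 and 696 of 13555 genes. At 1.5-fold 1 (DUSP2) was lower at PMA 3 days, beside 23.8% of all genes. Between the PMA arrays 0 were higher or lower, but 2 were higher under poly-A control scaling, beside 525 of 13027 genes. At 1.5-fold 3 were higher and 1 lower between these arrays, beside 7.18% and 4.76% of all genes. By the median over probe sets DUSP1 had log2 ratios of at least 2.24 at PMA 3 days and 2.05 at PMA 8 days, and PHLDA1 of at least 3.13 and 3.85, since these medians include ratios that meet the floor. The cause was not tested.

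Among all genes, higher genes made up 49.2% of calls at PMA 3 days over undifferentiated, 28.4% under poly-A control scaling (987 higher, 2491 lower) and 59.2% after centring. At PMA 8 days over PMA 3 days 179 were higher and 125 lower (58.9% higher), against 525 and 42 (92.6%) under poly-A control scaling, 375 and 191 with the floor at the 40th percentile, 97 and 86 at the 60th, and 359 and 173 with log2(signal + 50) in place of the floor. The second brightest probe sets, of fewer genes, gave 631 and 647 at PMA 3 days, 599 and 565 at PMA 8 days and 86 and 54 between them. At 3-fold 740 and 519, 696 and 414, and 14 and 6 genes were higher and lower in the 3 comparisons, and at 1.5-fold 2376 and 3173, 2384 and 2731, and 937 and 621. Of 918 counts of gene lists under alternatives other than the fold, 116 moved by over 1.5 times. No paired analysis was possible because each condition has 1 array, and for the same reason no replicate could be left out. Signals near the floor limit DUSP2, the dim DUSP1 and PHLDA2 probe sets and the undifferentiated PHLDA1 signals.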

Other observations

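The lists for regulators that DUSP1 is known to share were mixed. Of 5 measured genes in the list of the glucocorticoid receptor and its targets, 2 were higher and 1 lower at PMA 3 days, and 1 was higher and 1 lower at PMA 8 days. SGK1, a kinase that targets ion transport, was 6.59-fold higher at PMA 3 days and 4.89-fold at PMA 8 days, and FKBP5, a chaperone partner of the receptor, was 4.18-fold and 2.33-fold lower. TSC22D3 was 2.04-fold higher at PMA 3 days by its brightest probe set, and its other probe set had a log2 ratio of -0.10. The receptor gene NR3C1 was 1.66-fold above undifferentiated at PMA 3 days and 1.55-fold at PMA 8 days by its brightest probe set, and 4 of its 5 probe sets were above undifferentiated at each time.

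Of 11 genes for proteins that bind AU-rich elements in mRNA or belong to the deadenylation machinery (PARN, CNOT1 and CNOT7), 1 was higher and 1 lower at either PMA time. ZFP36L1 was 6.65-fold higher at PMA 3 days and 4.82-fold at PMA 8 days, and its relative ZFP36L2 was 3.21-fold and 3.84-fold lower. ZFP36, which encodes tristetraprolin and is named here after its values were seen, had a signal of 2873 in undifferentiated cells, 2673 at PMA 3 days and 2033 at PMA 8 days, under 2-fold in each comparison.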
